A study of Mus musculus with 12 samples.

Results

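The genes described belong to families of glycosyltransferases, enzymes that build sugar chains, and were measured in mouse thymocytes. They were taken as every gene whose symbol begins with St3gal, St6gal, St8sia, B3gnt, B3galt, B4galt, Galnt, Mgat or Gcnt, or with Fut followed by a digit, on probe sets that the array annotation pairs with exactly 1 symbol. This gave 82 of the 18193 genes measured, on 171 probe sets, and a gene's value is the mean over its probe sets. They fall into 20 sialyltransferases, 18 GALNT, 4 GCNT and 10 MGAT genes, 21 genes that extend galactose and lactosamine chains, and 9 FUT genes, 1 of which, Fut4-ps1, is a pseudogene. Of the 82, 29 have a single probe set, so their values are not averages, and Mgat1, B3galt4, B3gnt8, B3gnt9 and B4galt4 are among them.

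Thymocytes of C57BL/6 mice had been sorted by flow cytometry into 4 subsets, and total RNA taken with Trizol straight from the untreated, uncultured cells was read on 3 Affymetrix arrays per subset. DN cells were CD4-CD8a-TCRb-, DP cells were CD4+CD8a+, CD4SP cells were CD4+CD8a-TCRbhi and CD8SP cells were CD4-CD8a+TCRbhi. In the thymus DN cells give rise to DP cells, and DP cells that pass selection become either CD4SP or CD8SP cells. The labels give no age or sex for the mice and do not say that the 3 arrays of a subset are 3 mice, so a p-value here covers the spread among arrays alone, which may be technical, and 3 arrays a group limit the precision.

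Sugar chains on cell surface proteins are made stepwise in the endoplasmic reticulum and the Golgi. MGAT enzymes open the branches of N-glycans, GALNT enzymes start mucin-type O-glycans that C1galt1 and GCNT enzymes then extend, B4GALT, B3GALT and B3GNT enzymes lengthen chains with galactose and N-acetylglucosamine, and sialyltransferases and fucosyltransferases cap them. In the mouse thymus immature cortical cells are known for binding peanut agglutinin, a lectin for the unsialylated core 1 O-glycan, and mature medullary cells for having that site covered with sialic acid by ST3GAL1.

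Each gene is expressed on a log2 scale whose 0 is its own DP average, so levels cannot be set against each other between genes. A difference is given on that scale with its standard error (±) from a limma model of the 12 arrays, with n = 3 arrays a group, and counts as called where its Benjamini-Hochberg adjusted p was below 0.05. "Rose" and "fell" are used of called genes, and a fold is given without its sign. In bulk samples such as these, a change in the share of cells that express a gene and a change in RNA per cell cannot be told apart.

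The sort genes followed the labels: Cd4 was 8.26 ± 0.50 higher in CD4SP than in CD8SP (adjusted p = 5.68e-06), and Cd8a had a CD4SP minus CD8SP difference of -6.20 ± 0.38 (adjusted p = 5.68e-06). Of the stage markers, 5 of 5 DN genes were lower in DP than in DN, 4 of 4 DP genes fell in both single-positive subsets and 4 of 4 genes of mature thymocytes rose in both. DN replicate 1 and CD8SP replicate 1 stood apart, with array weights of 0.53 and 0.28 against 0.69 to 1.81 for the other 10 arrays. Replicate 1 had the lowest weight in each of the 4 groups, at 0.69 in DP and 0.90 in CD4SP. Many markers of other cell types were called lower in DP than in DN, where 18.8% of all genes were. These were 7 of 9 myeloid genes, 6 of 7 NK and innate lymphoid genes, 3 of 7 B cell genes and 4 of 4 gamma delta T cell genes. Of thymic stroma genes 2 of 7 were, and of erythroid genes 0 of 3. Blk is counted in both the B cell and the gamma delta list. Itgam and Csf1r of the myeloid list were not called, nor were Cd79b, Cd22, Pax5 and Ebf1 of the B cell list. In CD8SP the NK list was high mainly through Nkg7, a cytotoxic granule gene, which was 7.52 above DP, while 1 of its 7 genes rose there.

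Of the 20 sialyltransferases, 9 rose, 0 fell and 11 were not called in CD4SP against DP, where 16.4% of all genes rose and 16.2% fell. In CD8SP against DP 8 of them rose, 2 fell and 10 were not called, where 18.2% of all genes rose and 20.9% fell. The median log2 difference of the 20 was 0.27 in CD4SP and 0.14 in CD8SP, beside 0.04 and 0.00 over all genes. GALNT and chain-extending genes moved in both directions, with medians of 0.12 and 0.20 in CD4SP and of -0.02 and 0.24 in CD8SP. Of the 10 MGAT genes, Mgat1, Mgat4a and Mgat5 fell in both single-positive subsets, and the median of the 10 was 0.04 in CD4SP and 0.20 in CD8SP. In all 4 comparisons together 48 of the 82 genes were called at least once, a share of 58.5% against 58.0% of all genes, so the enzymes as a whole were not called more often than other genes.

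In DP against DN, 26 of 82 genes were called (31.7%, against 36.6% of all genes), of which 11 rose (13.4%, against 17.8% of all genes) and 15 fell (18.3%, against 18.8% of all genes). A call of at least 2-fold was made for 8 genes (9.76%, against 8.42% of all genes), and the arrays of the groups did not overlap for 34 (41.5%, against 49.8% of all genes). The median log2 difference was 0.02 over the 82 genes and 0.04 over all genes. The count that rose was 7 when DN replicate 1, DP replicate 2 or DP replicate 3 was left out. Of all genes, 2541 rose without DP replicate 3, against 3240 with all arrays. With array medians subtracted 7 rose and 16 fell, and with quantile normalization 3 rose and 10 fell. The same settings gave 2497 rises and 4002 falls, and 1194 rises and 1943 falls, over all genes. The unscaled values gave 3240 rises and 3420 falls over all genes. Beside these calls, the marker lists gave these array means: myeloid -0.23 to 0.23 in DP and 3.67 to 5.72 in DN, NK -0.11 to 0.07 in DP and 1.33 to 2.59 in DN, B cell -0.06 to 0.06 in DP and 0.55 to 2.09 in DN, gamma delta T cell -0.15 to 0.17 in DP and 2.35 to 2.92 in DN. Their part in the enzyme differences was not tested, and values relative to DP do not show which markers are absent.

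In CD4SP against DP, 30 genes were called (36.6%, against 32.7% of all genes), of which 20 rose (24.4%, against 16.4% of all genes) and 10 fell (12.2%, against 16.2% of all genes). Calls of at least 2-fold were made for 15 genes, which is 18.3% against 8.77% of all genes. The groups did not overlap for 41 genes (50%, against 49.4% of all genes). The median log2 difference was 0.17 over the 82 genes and 0.04 over all genes.

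In CD8SP against DP, 34 genes were called (41.5%, against 39.0% of all genes), of which 21 rose (25.6%, against 18.2% of all genes) and 13 fell (15.9%, against 20.9% of all genes). Calls of at least 2-fold were made for 11 genes, which is 13.4% against 9.56% of all genes, and the groups did not overlap for 40 (48.8%, against 48.6% of all genes). The median log2 difference was 0.09 over the 82 genes and 0.00 over all genes. The comparisons of CD4SP and of CD8SP with DP use the same 3 DP arrays, so their calls are not independent of each other.

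CD4SP against CD8SP tests whether the change from DP differed between the lineages. It called 16 genes (19.5%, against 12.7% of all genes), of which 11 were higher in CD4SP (13.4%, against 7.78% of all genes) and 5 lower (6.10%, against 4.91% of all genes). At least 2-fold calls were made for 3 genes (3.66%, against 1.79% of all genes), and the groups did not overlap for 29 (35.4%, against 30.3% of all genes). The higher count was 7 without CD4SP replicate 2 and 6 without CD4SP replicate 3. The lower count was 3 without CD4SP replicate 1, CD4SP replicate 2 or CD8SP replicate 3. Of all genes, 811 were higher without CD4SP replicate 3, against 1415 with all arrays. Without CD4SP replicate 2, 536 of all genes were lower, against 893 with all arrays. With array medians subtracted, 1003 genes of the whole table were higher and 1106 lower in CD4SP, where the unscaled values gave 1415 higher and 893 lower.

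**Figure D1:**
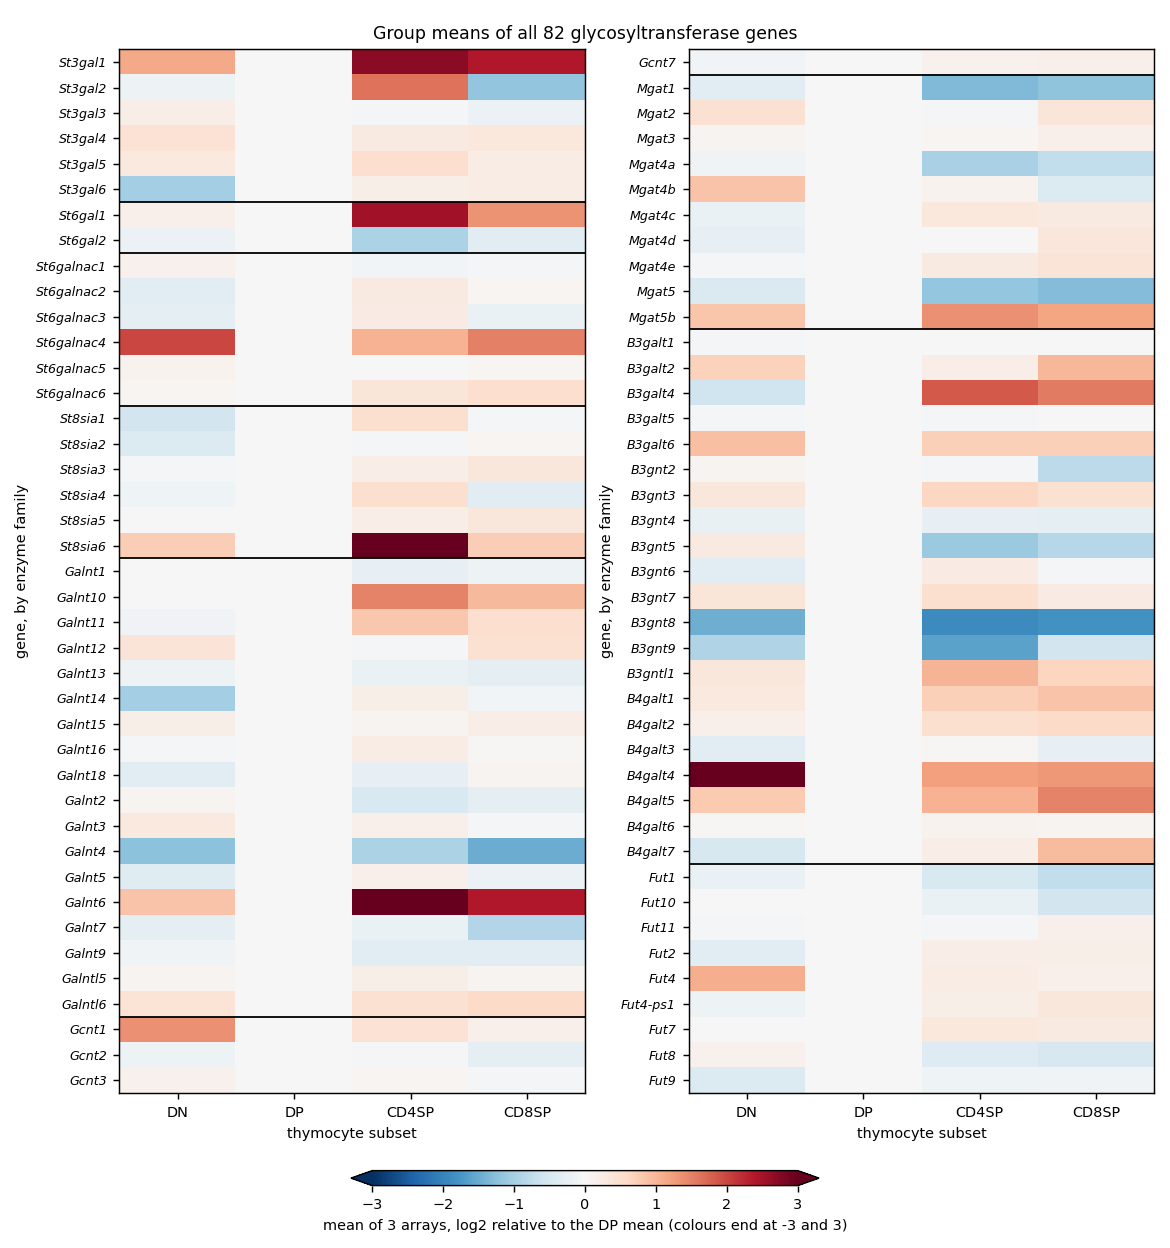
Mean of 3 arrays for each of the 82 genes (rows, by enzyme family, separated by lines) in DN, DP, CD4SP and CD8SP (columns), as log2 relative to the DP mean, with red above and blue below it. The DP column is 0 for each gene by the way the values were deposited, and St8sia6, Galnt6, St3gal1 and St6gal1 are the darkest red cells of the CD4SP column.

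The ST3GAL enzymes add sialic acid in alpha-2,3 linkage to galactose. St3gal1, which caps core 1 O-glycans, lay at 0.85, 1.34 and 1.19 in DN, at -0.14, -0.08 and 0.22 in DP, at 2.90, 2.54 and 2.65 in CD4SP and at 2.35, 2.36 and 2.48 in CD8SP. DP was the lowest group and both single-positive subsets the highest, and no groups overlapped. The gene fell by 1.13 ± 0.15 in DP against DN (2.18-fold, adjusted p = 0.000128). It rose by 2.70 ± 0.15 in CD4SP against DP (6.49-fold, adjusted p = 2.36e-07) and by 2.40 ± 0.15 in CD8SP against DP (5.26-fold, adjusted p = 4.8e-07). The difference of 0.30 ± 0.15 between CD4SP and CD8SP was not called (adjusted p = 0.219).

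St3gal2, which sialylates core 1 O-glycans and gangliosides, went opposite ways in the lineages. Its values were -0.48, -0.07 and 0.07 in DN, -0.01, -0.01 and 0.02 in DP, 1.64, 1.57 and 1.72 in CD4SP and -1.27, -1.01 and -1.26 in CD8SP. All CD4SP arrays lay above and all CD8SP arrays below the DN and DP arrays, which overlapped with each other. St3gal2 rose by 1.64 ± 0.13 in CD4SP against DP (3.13-fold, adjusted p = 3.95e-06) and fell by 1.18 ± 0.13 in CD8SP against DP (2.27-fold, adjusted p = 4e-05). The difference between CD4SP and CD8SP was 2.82 ± 0.13 (7.08-fold, adjusted p = 1.19e-06). All 3 probe sets of St3gal2 were called in these directions, with CD4SP minus CD8SP differences of 3, 3.40 and 2.08.

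St3gal6, which in the mouse contributes to selectin ligands, was the ST3GAL gene that rose in DP. It lay at -1.69, -0.76 and -0.59 in DN, at -0.30, 0.28 and 0.02 in DP, at 0.27, 0.15 and 0.12 in CD4SP and at 0.16, 0.24 and 0.27 in CD8SP. The DN arrays lay below all others, DN replicate 1 farthest, and the other 3 groups overlapped. The rise in DP against DN was 1.02 ± 0.24 (2.02-fold, adjusted p = 0.00719), and 0.68 without DN replicate 1 (adjusted p = 0.00583). Its 5 probe sets differed: 1 of them rose by 1.09 in CD4SP (adjusted p = 0.0116) and by 1.26 in CD8SP against DP (adjusted p = 0.00431), and another rose by 1.41 in CD8SP (adjusted p = 0.0274) and was at 1.03 in CD4SP (adjusted p = 0.108). The mean of the 5 was not called in either. Smaller calls in the family were St3gal4, which fell by 0.43 in DP against DN and rose by 0.32 in CD8SP against DP, and St3gal5, the GM3 ganglioside synthase, which rose by 0.51 in CD4SP against DP. St3gal3 was called in no comparison.

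St6gal1 adds alpha-2,6 sialic acid to the lactosamine of N-glycans and makes the ligand of the B cell lectin CD22. Its values were -0.77, 0.58 and 0.68 in DN, -0.50, 0.33 and 0.17 in DP, 2.27, 2.57 and 2.69 in CD4SP and 1.08, 1.53 and 1.44 in CD8SP. CD4SP arrays were the highest and CD8SP arrays the next, with no overlap, while DN and DP overlapped and DN replicate 1 lay apart from its group. St6gal1 rose by 2.51 ± 0.35 in CD4SP against DP (5.70-fold, adjusted p = 0.000233) and by 1.35 ± 0.35 in CD8SP against DP (2.55-fold, adjusted p = 0.0106), where 1 of its 2 probe sets was called. The CD4SP minus CD8SP difference of 1.16 ± 0.35 was not called (adjusted p = 0.0558), and replicate 1 was the lowest array in each of the 4 groups. The difference was called without DN replicate 1, at the same difference of 1.16 (adjusted p = 0.00639). St6gal2 was not called and had CD4SP arrays at 0.64, -0.96 and -2.54 against DP arrays at 0.18, -0.32 and 0.14.

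Among the ST6GALNAC enzymes, which act on O-glycans and gangliosides, St6galnac4 moved most. It adds the second sialic acid of disialyl core 1 and lay at 1.79, 2.28 and 1.94 in DN, at -0.10, 0.12 and -0.02 in DP, at 0.83, 1.02 and 1.29 in CD4SP and at 1.30, 1.58 and 1.61 in CD8SP. DN was the highest group and DP the lowest, and no groups overlapped, although the CD4SP and CD8SP arrays came within 0.01 of each other. St6galnac4 fell by 2.00 ± 0.15 in DP against DN (4.01-fold, adjusted p = 3.07e-06). It rose by 1.05 ± 0.15 in CD4SP against DP (2.06-fold, adjusted p = 0.000313) and by 1.5 ± 0.15 in CD8SP against DP (2.82-fold, adjusted p = 2.04e-05). St6galnac6 rose by 0.37 in CD4SP and by 0.50 in CD8SP against DP. St6galnac3 was 0.42 higher in CD4SP than in CD8SP (adjusted p = 0.044), a call lost in 12 of 21 alternatives. St6galnac1, St6galnac2 and St6galnac5 were called in no comparison.

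The ST8SIA enzymes link sialic acid to sialic acid. St8sia6, which in the mouse builds disialic acid on O-glycans, had the largest rise of the 82 genes. Its values were 0.36, 1.11 and 0.74 in DN, -0.08, -0.02 and 0.10 in DP, 3.45, 3.64 and 3.63 in CD4SP and 0.71, 0.80 and 0.70 in CD8SP. The CD4SP arrays lay above all others, the DP arrays below all others, and DN and CD8SP overlapped. St8sia6 rose by 3.57 ± 0.16 in CD4SP against DP (11.9-fold, adjusted p = 5.81e-08) and by 0.73 ± 0.16 in CD8SP against DP (1.66-fold, adjusted p = 0.00339). It was 2.84 ± 0.16 higher in CD4SP than in CD8SP (7.16-fold, adjusted p = 3.53e-06). In DP against DN it fell by 0.74 ± 0.16 (1.67-fold, adjusted p = 0.00354). Its 3 probe sets rose by 0.83, 5.21 and 4.68 in CD4SP against DP. The probe set with the smallest spread was not called in CD8SP against DP (0.11) nor in DP against DN (0.07).

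All 6 ST8SIA genes were called in at least 1 comparison, as were 58% of all genes. St8sia4, a polysialic acid synthase, had values of 0.50, 0.46 and 0.49 in CD4SP and -0.38, -0.30 and -0.36 in CD8SP, against 0.06, -0.03 and -0.02 in DP. It was 0.83 ± 0.12 higher in CD4SP than in CD8SP (adjusted p = 0.00149), a call held by both probe sets, at 0.74 and 0.92. Against DP the mean rose by 0.48 in CD4SP, where 1 probe set was called at 0.71 (adjusted p = 0.00265) and the other was at 0.25 (adjusted p = 0.216). It fell by 0.35 in CD8SP, where the second fell by 0.67 (adjusted p = 0.00326) and the first was at -0.02 (adjusted p = 0.915). The fall of the mean in CD8SP was lost in 13 alternatives. St8sia1, the GD3 ganglioside synthase, rose by 0.56 in DP against DN and by 0.49 in CD4SP against DP, and was 0.52 higher in CD4SP than in CD8SP. St8sia2, the other polysialic acid synthase, rose by 0.40 in DP against DN, and St8sia3 and St8sia5 rose by 0.34 and 0.35 in CD8SP against DP.

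Promoter windows are shown for St8sia6 and Galnt6 here and for B3gnt8 and B4galt4 further on, each of which had the largest called rise or fall in at least 1 comparison, so that the sequence at their starts stands beside the values. They are RefSeq windows on GRCm38.p6, from 250 bases before to 50 bases after a start, and 60 of the 82 genes had 1 or more, 85 in all. Capitals mark matches, on either strand, to the E protein box CAGGTG, the RUNX letters TGTGGT, the GATA letters AGATAA, the ETS letters CGGAAG, the TCF and LEF letters CTTTGA, the KLF letters GGGTGTG and the TATA box TATAAA. St8sia6 has 1 window and Galnt6, a starter of O-glycans described next, has 2.
St8sia6, chr2:13793471-13793770, minus strand: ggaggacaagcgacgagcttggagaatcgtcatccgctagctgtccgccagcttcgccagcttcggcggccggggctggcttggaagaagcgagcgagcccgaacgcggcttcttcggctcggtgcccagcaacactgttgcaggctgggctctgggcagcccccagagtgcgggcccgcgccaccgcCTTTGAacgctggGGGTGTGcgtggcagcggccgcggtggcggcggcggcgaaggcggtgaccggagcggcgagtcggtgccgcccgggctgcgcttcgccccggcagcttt
Galnt6, chr15:100729327-100729626, minus strand: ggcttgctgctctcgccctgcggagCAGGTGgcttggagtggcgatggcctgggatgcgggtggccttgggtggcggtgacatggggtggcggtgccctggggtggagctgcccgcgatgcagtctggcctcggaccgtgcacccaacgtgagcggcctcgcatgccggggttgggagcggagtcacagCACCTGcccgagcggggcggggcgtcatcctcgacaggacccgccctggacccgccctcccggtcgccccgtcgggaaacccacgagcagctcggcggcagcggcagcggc
Galnt6, chr15:100720428-100720727, minus strand: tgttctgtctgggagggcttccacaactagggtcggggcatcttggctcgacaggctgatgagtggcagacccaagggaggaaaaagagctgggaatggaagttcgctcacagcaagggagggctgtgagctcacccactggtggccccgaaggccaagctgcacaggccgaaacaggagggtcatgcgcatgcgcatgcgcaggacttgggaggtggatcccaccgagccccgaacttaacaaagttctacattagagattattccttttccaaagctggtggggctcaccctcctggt
The St8sia6 window holds the TCF and LEF letters once and the KLF letters once, the first Galnt6 window the E protein box on each strand, and the other Galnt6 window none of the 7. The E protein box is in 20.2% of all 32851 windows of this length and in 15.3% of the 85 windows of these genes, the TCF and LEF letters in 16% and 15.3%, and the KLF letters in 7.95% and 7.06%. The RUNX, GATA, ETS and TATA letters are in 16.8%, 11.2%, 16.9% and 13.6% of all windows and in 11.8%, 11.8%, 11.8% and 3.53% of those of these genes. A match is a description of the letters and shows no binding.

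GALNT enzymes start mucin-type O-glycans by adding N-acetylgalactosamine to serine or threonine. Of the 18, 3 rose and 3 fell in CD4SP against DP, 5 rose and 2 fell in CD8SP against DP, and in CD4SP against CD8SP 4 were higher and 1 was lower. In DP against DN 2 rose and 2 fell. Not called were 14 of the 18 in DP against DN, 12 in CD4SP and 11 in CD8SP against DP, and 13 in CD4SP against CD8SP, where 36.6%, 32.7%, 39.0% and 12.7% of all genes were called in the same 4 comparisons. Galnt6 lay at 0.63, 0.95 and 0.96 in DN, at -0.05, -0.03 and 0.08 in DP, at 3.19, 3.30 and 3.33 in CD4SP and at 2.31, 2.45 and 2.47 in CD8SP. No groups overlapped, with DP lowest and CD4SP highest. Galnt6 rose by 3.27 ± 0.10 in CD4SP against DP (9.67-fold, adjusted p = 5.87e-09) and by 2.41 ± 0.10 in CD8SP against DP (5.32-fold, adjusted p = 4.15e-08). It was 0.86 ± 0.10 higher in CD4SP than in CD8SP (1.82-fold, adjusted p = 0.000461). In DP against DN it fell by 0.85 ± 0.10 (1.80-fold, adjusted p = 8.03e-05). All 3 of its probe sets were called in the same direction in all 4 comparisons.

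Galnt10 had values of -0.14, 0.15 and 0.00 in DN, 0.06, -0.08 and 0.02 in DP, 1.61, 1.28 and 1.57 in CD4SP and 0.90, 1.06 and 0.96 in CD8SP. DN and DP overlapped, and CD4SP lay above CD8SP and CD8SP above both. It rose by 1.48 ± 0.11 in CD4SP (2.80-fold, adjusted p = 1.97e-06) and by 0.97 ± 0.11 in CD8SP against DP (1.96-fold, adjusted p = 3.91e-05). The CD4SP minus CD8SP difference was 0.51 ± 0.11 (1.42-fold, adjusted p = 0.0115). Its probe sets disagreed there, at 0.70 (adjusted p = 0.00215), 0.86 (adjusted p = 0.000465) and -0.03 (adjusted p = 0.961).

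Galnt4 was highest in DP. Its values were -1.32, -1.18 and -1.22 in DN, 0.05, 0.00 and -0.05 in DP, -0.85, -0.99 and -1 in CD4SP and -1.51, -1.57 and -1.43 in CD8SP. No groups overlapped, and CD8SP was the lowest. Galnt4 rose by 1.24 ± 0.08 in DP against DN (2.36-fold, adjusted p = 9.42e-07). It fell by 0.95 ± 0.08 in CD4SP (1.93-fold, adjusted p = 5.25e-06) and by 1.5 ± 0.08 in CD8SP against DP (2.84-fold, adjusted p = 1.78e-07). It was 0.56 ± 0.08 higher in CD4SP than in CD8SP (adjusted p = 0.00133). In DP against DN and in both single-positive subsets against DP, 2 of its 3 probe sets were called. The third was at 0.23, -0.12 and -0.44 (adjusted p = 0.578, 0.791 and 0.266). In CD4SP against CD8SP the probe sets were at 0.79 (adjusted p = 0.000681), 0.57 (adjusted p = 0.106) and 0.31 (adjusted p = 0.547).

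Galnt7, which prefers peptides that already carry N-acetylgalactosamine, lay at -0.96, -0.86 and -0.80 in CD8SP against -0.12, 0.08 and 0.05 in DP. It fell by 0.87 ± 0.08 there (adjusted p = 1.26e-05) and was 0.66 higher in CD4SP than in CD8SP. Galnt11 rose by 0.82 in CD4SP and by 0.51 in CD8SP, Galnt2 and Galnt1 fell by 0.45 and 0.25 in CD4SP, and Galntl6 rose by 0.58 in CD8SP, all against DP. The rises of Galnt11 came from 1 of its 2 probe sets, at 1.39 in CD4SP and 0.87 in CD8SP. The other was at 0.25 and 0.15 and was not called (adjusted p = 0.171 and 0.391). Galnt12 fell by 0.38 in DP against DN, rose by 0.46 in CD8SP against DP and was lower in CD4SP than in CD8SP, with a difference of -0.50. The other 9 GALNT genes were called in no comparison, and the largest difference among them was that of Galnt14, whose DN arrays spread over -0.09, -0.77 and -2.22.

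The GCNT enzymes branch O-glycans and poly-lactosamine. Of the 4, 1 was called in at least 1 comparison, as were 58% of all genes. Gcnt1, the core 2 enzyme that competes with sialylation of core 1, lay at 1.12, 1.64 and 1.38 in DN, at 0.17, -0.03 and -0.14 in DP, at 0.44, 0.39 and 0.46 in CD4SP and at 0.43, -0.03 and 0.05 in CD8SP. DN arrays lay above all others, and CD8SP overlapped DP. Gcnt1 fell by 1.38 ± 0.15 in DP against DN (2.60-fold, adjusted p = 3.96e-05), and its difference of 0.43 ± 0.15 in CD4SP against DP was not called (adjusted p = 0.0505). The fall came from 1 of its 2 probe sets, which fell by 2.36 (adjusted p = 1.96e-05), while the other differed by -0.40 (adjusted p = 0.0923). Gcnt2, Gcnt3 and Gcnt7 were called in no comparison.

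MGAT enzymes add the N-acetylglucosamine branches of complex N-glycans. Of the 10, 0 rose and 3 fell in CD4SP, and 1 rose and 3 fell in CD8SP against DP. Of all genes, 16.4% rose and 16.2% fell in CD4SP, and 18.2% rose and 20.9% fell in CD8SP against DP. Mgat1, which makes the first branch and without which no complex N-glycan forms, lay at -0.50, -0.24 and -0.19 in DN, at -0.04, 0.05 and 0.00 in DP, at -1.35, -1.35 and -1.27 in CD4SP and at -1.42, -1.15 and -1.04 in CD8SP. Both single-positive subsets lay below DN and DP and overlapped with each other. Mgat1 fell by 1.32 ± 0.11 in CD4SP (2.50-fold, adjusted p = 5.85e-06) and by 1.20 ± 0.11 in CD8SP against DP (2.30-fold, adjusted p = 1.03e-05). Its difference of 0.31 in DP against DN was not called (adjusted p = 0.0513).

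Mgat5 makes the beta-1,6 branch that carries long lactosamine chains and binds galectins in mouse T cells. Its values were -0.40, -0.58 and -0.30 in DN, 0.18, -0.11 and -0.07 in DP, -1.15, -1.27 and -1.11 in CD4SP and -1.22, -1.31 and -1.37 in CD8SP. DP was the highest group, DN lay below it without overlap, and the overlapping single-positive subsets were the lowest. Mgat5 rose by 0.43 ± 0.10 in DP against DN (1.34-fold, adjusted p = 0.00802). It fell by 1.17 ± 0.10 in CD4SP (2.26-fold, adjusted p = 8.41e-06) and by 1.30 ± 0.10 in CD8SP against DP (2.46-fold, adjusted p = 3.63e-06). Mgat4a, which adds a beta-1,4 branch, fell by 0.97 in CD4SP and by 0.74 in CD8SP against DP.

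Mgat4b, which makes the same branch as Mgat4a, fell by 0.86 ± 0.16 in DP against DN (adjusted p = 0.0017). Mgat2, the enzyme after Mgat1 on the way to complex chains, fell by 0.46 in DP against DN, rose by 0.37 in CD8SP against DP, and was lower in CD4SP than in CD8SP with a difference of -0.40. Mgat5b had differences of 1.38 in CD4SP and 1.19 in CD8SP against DP that were not called (adjusted p = 0.109 and 0.151), and its DP arrays lay at 0.33, -1.77 and 1.43. Mgat3, Mgat4c, Mgat4d and Mgat4e were called in no comparison.

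Of the 21 genes that add galactose or extend lactosamine chains, 5 rose and 5 fell in DP against DN, 8 rose and 3 fell in CD4SP against DP, and 7 rose and 4 fell in CD8SP against DP. CD4SP was higher than CD8SP for 1 and lower for 3. Of all genes, 17.8% rose and 18.8% fell in DP against DN, and 16.4% rose and 16.2% fell in CD4SP against DP. In CD8SP against DP 18.2% of all genes rose and 20.9% fell, and CD4SP was higher than CD8SP for 7.78% and lower for 4.91%. B4galt4, a galactosyltransferase that acts on sulfated N-acetylglucosamine, had the largest fall of the 82 genes. It lay at 3.34, 3.99 and 3.95 in DN, at 0.68, -0.56 and -0.12 in DP, at 1.69, 0.33 and 1.64 in CD4SP and at 1.88, 1.77 and 0.24 in CD8SP. DN lay far above all other arrays, and DP, CD4SP and CD8SP overlapped. B4galt4 fell by 3.76 ± 0.50 in DP against DN (13.6-fold, adjusted p = 0.000156), on its single probe set. Its differences of 1.22 ± 0.50 in CD4SP and 1.30 ± 0.50 in CD8SP against DP were not called (adjusted p = 0.0893 and 0.0625).

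B3gnt8, which extends poly-lactosamine on branched N-glycans, had the largest rise in DP against DN and the largest fall in each single-positive subset against DP. Its values were -2.25, -0.98 and -1.17 in DN, -0.17, 0.12 and 0.04 in DP, -2.18, -1.88 and -1.63 in CD4SP and -1.87, -1.57 and -2.03 in CD8SP. The DP arrays lay above all others, and the other 3 groups overlapped. B3gnt8 rose by 1.47 ± 0.29 in DP against DN (2.76-fold, adjusted p = 0.0021), and by 1.07 without DN replicate 1. It fell by 1.90 ± 0.29 in CD4SP (3.73-fold, adjusted p = 0.000394) and by 1.82 ± 0.29 in CD8SP against DP (3.54-fold, adjusted p = 0.000451).

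The promoter windows of B3gnt8 and B4galt4, from the same RefSeq table on GRCm38.p6, are shown for the largest rise and the largest fall in DP against DN.
B3gnt8, chr7:25627374-25627673, plus strand: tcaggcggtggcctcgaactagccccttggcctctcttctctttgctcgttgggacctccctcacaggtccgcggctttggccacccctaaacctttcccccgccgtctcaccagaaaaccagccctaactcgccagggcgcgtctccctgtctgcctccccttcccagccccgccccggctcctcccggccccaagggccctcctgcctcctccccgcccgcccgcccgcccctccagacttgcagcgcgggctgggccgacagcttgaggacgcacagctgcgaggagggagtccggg
B4galt4, chr16:38742009-38742308, plus strand: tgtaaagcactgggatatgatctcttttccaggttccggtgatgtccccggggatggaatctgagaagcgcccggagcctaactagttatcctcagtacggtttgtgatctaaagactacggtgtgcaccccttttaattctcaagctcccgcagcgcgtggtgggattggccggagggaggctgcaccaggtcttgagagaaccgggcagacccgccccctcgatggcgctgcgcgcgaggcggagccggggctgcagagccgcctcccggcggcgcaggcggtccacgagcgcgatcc
Neither holds a match to the 7 motifs, so no letters are in capitals. Their G and C content is 70.3% and 62.7%, beside 72% for the St8sia6 window and 73.7% and 57.7% for the Galnt6 windows.

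B3gnt9 had values of -1.23, -0.57 and -0.90 in DN, -0.10, 0.08 and 0.02 in DP, -1.41, -1.72 and -1.66 in CD4SP and -0.62, -0.43 and -0.58 in CD8SP. DP was the highest and CD4SP the lowest group, and DN overlapped CD8SP. B3gnt9 rose by 0.90 ± 0.15 in DP against DN (1.87-fold, adjusted p = 0.000796). It fell by 1.60 ± 0.15 in CD4SP (3.03-fold, adjusted p = 1.35e-05) and by 0.54 ± 0.15 in CD8SP against DP (1.46-fold, adjusted p = 0.0155). CD4SP was lower than CD8SP, with a difference of -1.05 ± 0.15 (2.08-fold, adjusted p = 0.00143), the largest called difference in that direction.

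B3gnt5, which starts the lacto-series glycolipids, lay at -0.09, 0.42 and 0.52 in DN, at -0.11, -0.01 and 0.12 in DP, at -1.10, -1.19 and -1.02 in CD4SP and at -0.89, -0.68 and -1 in CD8SP. Both single-positive subsets lay below DN and DP, which overlapped. B3gnt5 fell by 1.11 ± 0.15 in CD4SP (2.15-fold, adjusted p = 0.00021) and by 0.86 ± 0.15 in CD8SP against DP (1.81-fold, adjusted p = 0.00104). B3gnt2, the main poly-lactosamine extension enzyme of mouse T cells, fell by 0.79 ± 0.22 in CD8SP against DP (adjusted p = 0.016), and the call was lost without DP replicate 2, DP replicate 3 or CD8SP replicate 1 (adjusted p up to 0.0569).

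B3galt4, the GM1 ganglioside synthase, rose at each step. It lay at -1, -0.35 and -0.42 in DN, at -0.13, 0.16 and -0.03 in DP, at 1.76, 1.77 and 1.96 in CD4SP and at 1.24, 1.69 and 1.78 in CD8SP. DN lay below DP and both below the overlapping single-positive subsets. The rise in DP against DN was 0.59 ± 0.19 (1.51-fold, adjusted p = 0.0286), and 0.38 without DN replicate 1, where it was not called (adjusted p = 0.093). B3galt4 rose by 1.83 ± 0.19 in CD4SP (3.56-fold, adjusted p = 2.27e-05) and by 1.57 ± 0.19 in CD8SP against DP (2.96-fold, adjusted p = 6.17e-05).

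B4galt5, a lactosylceramide synthase, lay at 0.68, 0.74 and 0.96 in DN, at 0.10, -0.10 and 0.01 in DP, at 1.03, 1 and 1.14 in CD4SP and at 1.37, 1.48 and 1.58 in CD8SP. No groups overlapped, and CD8SP was the highest. B4galt5 fell by 0.79 ± 0.10 in DP against DN (1.73-fold, adjusted p = 9.9e-05). It rose by 1.05 ± 0.10 in CD4SP (2.08-fold, adjusted p = 1.22e-05) and by 1.48 ± 0.10 in CD8SP against DP (2.78-fold, adjusted p = 9.67e-07). These calls rest on 1 of 2 probe sets: the one whose ID ends in _s_at, which marks probes shared by several transcripts, rose by 2.15 in CD4SP and 2.86 in CD8SP against DP, while the other had -0.04 and 0.09 and was not called.

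B3gntl1 had values of 0.28, 0.27 and 0.50 in DN, 0.19, -0.07 and -0.12 in DP, 0.99, 1.02 and 1.04 in CD4SP and 0.57, 0.68 and 0.68 in CD8SP. No groups overlapped, and the order was CD4SP, CD8SP, DN and DP from high to low. It rose by 1.02 ± 0.10 in CD4SP (2.02-fold, adjusted p = 1.74e-05) and by 0.64 ± 0.10 in CD8SP against DP (1.56-fold, adjusted p = 0.000417), after a fall of 0.35 ± 0.10 in DP against DN (adjusted p = 0.0183).

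Smaller calls in the same group included B4galt1, the main lactosamine galactosyltransferase, which fell by 0.29 in DP against DN and rose by 0.71 in CD4SP and 0.86 in CD8SP against DP. B3galt6, an enzyme of the glycosaminoglycan linker, fell by 0.91 in DP against DN and rose by 0.71 in CD4SP and by 0.71 in CD8SP against DP. B4galt7, which acts in the same linker, rose by 0.49 in DP against DN and by 0.94 in CD8SP against DP, and its CD4SP minus CD8SP difference was -0.75 (adjusted p = 0.00488). B4galt2 rose by 0.48 in CD4SP and by 0.57 in CD8SP, B3gnt3 and B3gnt7 rose by 0.62 and 0.48 in CD4SP, all against DP, and B4galt3 rose by 0.32 in DP against DN. B3galt1, B3galt2, B3galt5, B3gnt4, B3gnt6 and B4galt6 were called in no comparison.

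Of 9 fucosyltransferase genes, 0 rose and 1 fell in DP against DN, 0 rose and 1 fell in CD4SP and 0 rose and 2 fell in CD8SP against DP, beside 36.6%, 32.7% and 39.0% of all genes called. Fut4, which makes Lewis x structures, lay at 0.69, 1.40 and 1.15 in DN, at -0.09, -0.17 and 0.26 in DP, at 0.41, -0.05 and 0.29 in CD4SP and at -0.18, 0.33 and 0.31 in CD8SP. DN arrays lay above all others, and the other 3 groups overlapped. Fut4 fell by 1.08 ± 0.21 in DP against DN (2.11-fold, adjusted p = 0.00204). Of its 2 probe sets, 1 rose by 0.86 in CD4SP (adjusted p = 0.0117) and by 0.85 in CD8SP against DP (adjusted p = 0.00991), while the other was not called in either. Fut8, the core fucosyltransferase, fell by 0.39 in CD4SP and by 0.48 in CD8SP against DP. Fut10 fell by 0.56 in CD8SP against DP and was 0.37 higher in CD4SP than in CD8SP. Fut7, which makes sialyl Lewis x on selectin ligands, was not called, with differences of 0.31 in CD4SP and 0.26 in CD8SP against DP. Fut1, Fut2, Fut9, Fut11 and Fut4-ps1 were not called either.

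**Figure D2:**
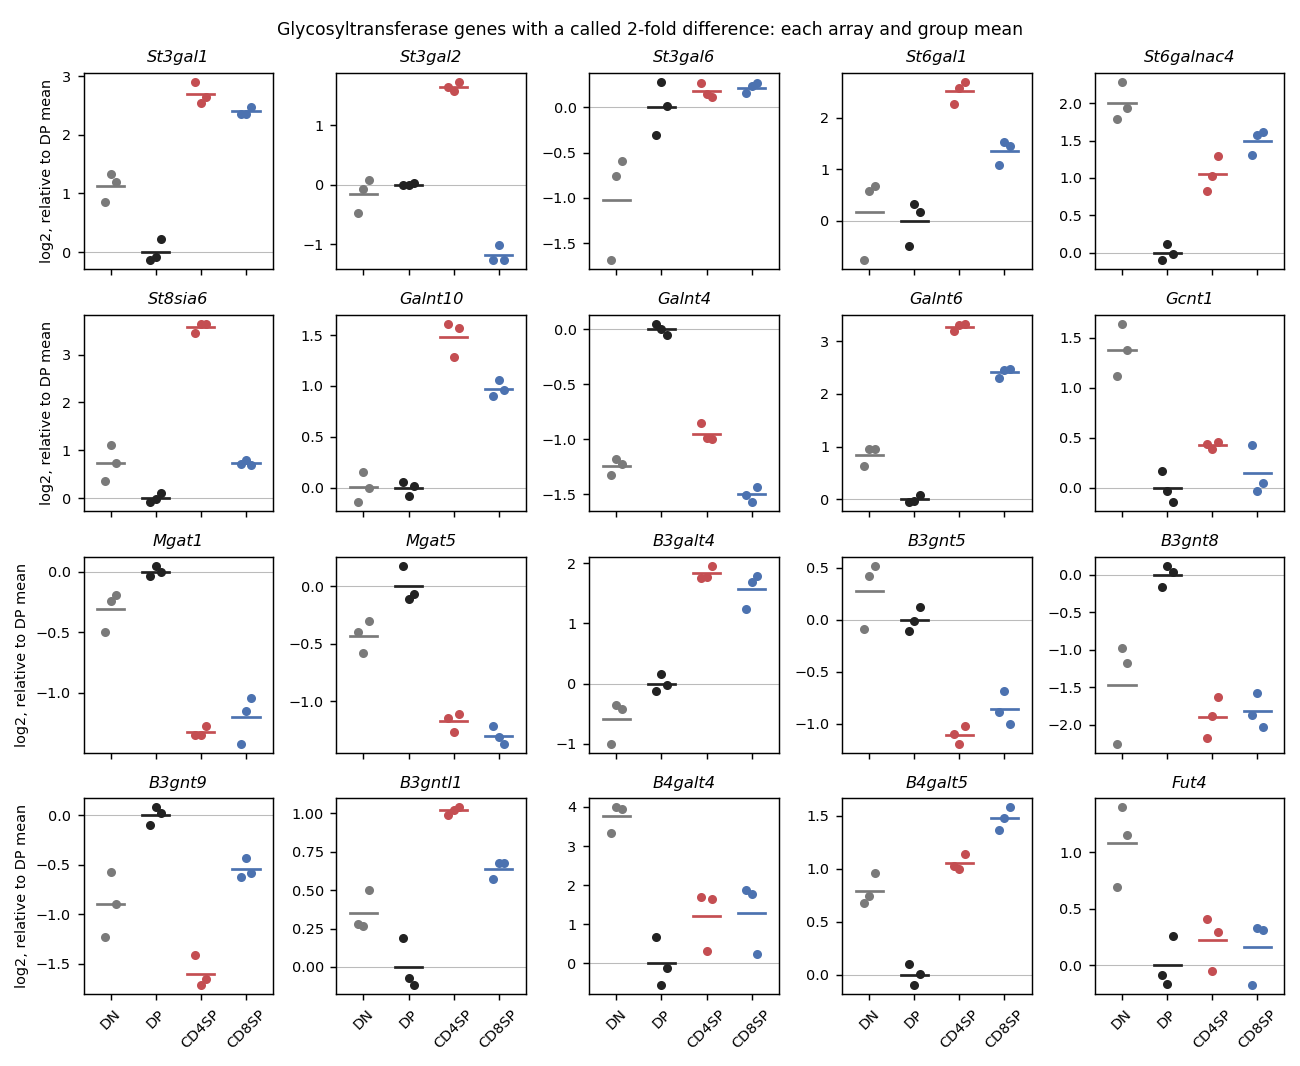
Each of the 12 arrays (points) and the mean of 3 (bar) for the 20 genes called with at least a 2-fold difference in at least 1 comparison, as log2 relative to the DP mean (y axis, its range set for each gene), by subset (x axis). St3gal2 has all 3 CD4SP arrays above and all 3 CD8SP arrays below DP, and B4galt4 has its 3 DN arrays between 3.34 and 3.99.

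A fall in DP against DN and a rise in both single-positive subsets against DP was called for 8 genes: St3gal1, St6galnac4, St8sia6, Galnt6, B3galt6, B3gntl1, B4galt1 and B4galt5. The opposite course, a rise in DP and a fall in both, was called for 4: Galnt4, Mgat5, B3gnt8 and B3gnt9. They make up 9.76% and 4.88% of the 82 genes, against 6.26% and 6.4% of all genes, and because all these steps use the DP arrays, the counts depend on them. The highest group mean was in DN for 18 genes (22%, against 26.4% of all genes), in DP for 16 (19.5%, against 26.2%), in CD4SP for 27 (32.9%, against 25.6%) and in CD8SP for 21 (25.6%, against 21.8%). The lowest was in DN for 25 (30.5%, against 33.7%), in DP for 27 (32.9%, against 25.9%), in CD4SP for 13 (15.9%, against 17.2%) and in CD8SP for 17 (20.7%, against 23.2%). These shares were not tested.

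**Figure D3:**
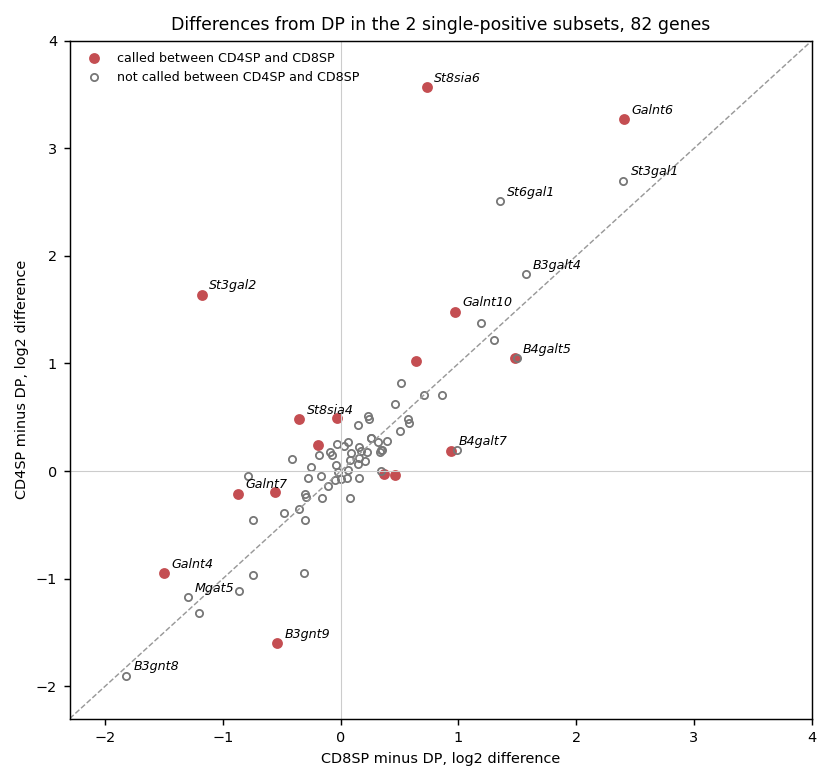
The log2 difference from DP in CD4SP (y axis) against that in CD8SP (x axis) for the 82 genes, with the dashed line where both are equal. Filled points are the 16 genes called between CD4SP and CD8SP, among them St8sia6 and St3gal2 far above the line and B3gnt9 below it; both axes share the 3 DP arrays.

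Some of the smaller calls, each under 2-fold, were lost when a single array was left out, with the direction kept. In DP against DN, B3galt4 and Galnt7 lost theirs without DN replicate 1, DP replicate 2 or DP replicate 3 (adjusted p up to 0.0969 and 0.0714). B4galt7 lost its call there without DN replicate 1 or DP replicate 3 (adjusted p up to 0.0582), B3gntl1 without DN replicate 3, DP replicate 2 or DP replicate 3 (up to 0.078), and B4galt3 and St8sia2 without any 1 of 5 arrays (up to 0.126 and 0.147). In CD4SP against DP, St3gal5 lost its call without CD4SP replicate 1 (adjusted p = 0.051) and St8sia1 without DP replicate 1 or CD4SP replicate 3 (up to 0.0574), while for B3gnt3, B3gnt7, B4galt2 and Galnt1 any 1 of 5 to 7 arrays sufficed (up to 0.138). In CD8SP against DP, St8sia3 and B4galt2 lost theirs without DP replicate 3 (adjusted p = 0.0566 and 0.0504) and B3gnt9 without DP replicate 2 (adjusted p = 0.0539). Mgat2 lost its call there without any 1 of 3 arrays, St3gal4 of 4, St8sia5 of 5, Galntl6 of 7 and St8sia4 of 10 (adjusted p up to 0.135). In CD4SP against CD8SP, Galnt10 lost its call without CD4SP replicate 3 (adjusted p = 0.0519), and Fut10 and St8sia1 without CD4SP replicate 2 or CD4SP replicate 3 (up to 0.0524 and 0.0934). B4galt5, B3gntl1, Mgat2 and St6galnac3 lost theirs there without any 1 of 4, 6, 7 and 9 arrays (up to 0.139).

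Genes that supply or work beside these enzymes were read from 3 lists. Medians in CD4SP against DP were 0.12 for other glycan enzymes, -0.07 for nucleotide sugar supply and 0.10 for sialidases and lectins. Over all genes the median was 0.04. The counts of all 3 lists stand beside these shares of all genes: 17.8% rose and 18.8% fell in DP against DN. In CD4SP against DP 16.4% rose and 16.2% fell, and in CD8SP against DP 18.2% rose and 20.9% fell. CD4SP was higher than CD8SP for 7.78% of all genes and lower for 4.91%. Of 18 other N- and O-glycan enzymes, 5 rose and 4 fell in DP against DN, 8 rose and 2 fell in CD4SP against DP, 6 rose and 4 fell in CD8SP against DP, and against CD8SP the CD4SP value was higher for 3 and lower for 0. C1galt1, the core 1 synthase that makes the substrate of ST3GAL1, lay at -0.98, -1.06 and -0.98 in DN, at -0.02, 0.02 and -0.01 in DP, at -1.60, -1.59 and -1.62 in CD4SP and at -1.83, -1.64 and -1.76 in CD8SP. It rose by 1.01 ± 0.07 in DP against DN (adjusted p = 1.94e-06) and fell by 1.60 ± 0.07 in CD4SP (adjusted p = 6.08e-08) and 1.75 ± 0.07 in CD8SP against DP (adjusted p = 3.23e-08). Its arrays were highest in DP, where those of St3gal1 were lowest. Lfng, the fringe enzyme that extends O-fucose on Notch, fell by 2.75 ± 0.34 in DP against DN and rose by 5.88 ± 0.34 in CD4SP and 5.68 ± 0.34 in CD8SP against DP. Mfng, another fringe enzyme, fell by 1.15 in DP against DN and rose by 1.49 in CD4SP and 1.45 in CD8SP against DP. B4galnt1, which makes the GM2 and GD2 gangliosides, rose by 1.84 ± 0.13 in CD4SP and 2.17 ± 0.13 in CD8SP against DP.

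Of 14 genes of nucleotide sugar supply, 1 rose and 5 fell in DP against DN, 3 rose and 3 fell in CD4SP and 3 rose and 3 fell in CD8SP against DP, and 3 were higher in CD4SP than in CD8SP, with 0 lower. Slc35a1, the Golgi transporter of CMP-sialic acid, lay at 0.69, 0.69 and 0.76 in CD4SP and at 0.04, 0.25 and 0.21 in CD8SP, against -0.23, 0.12 and 0.10 in DP. It rose by 0.72 ± 0.10 in CD4SP against DP (adjusted p = 0.000273) and was 0.55 ± 0.10 higher in CD4SP than in CD8SP (adjusted p = 0.00579). Pgm3, an enzyme of UDP-N-acetylglucosamine synthesis, fell by 1.42 in DP against DN and rose by 0.57 in CD4SP and 0.72 in CD8SP against DP.

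Of 11 sialidases, lectins and carrier proteins, 2 rose and 0 fell in DP against DN, 3 rose and 3 fell in CD4SP against DP, 3 rose and 2 fell in CD8SP against DP, and 1 was higher and 1 lower in CD4SP than in CD8SP. The ganglioside sialidase Neu3 rose by 0.72 in DP against DN and fell by 1 in CD4SP and by 0.71 in CD8SP against DP. Lgals1, a galectin, fell by 1.32 ± 0.11 in CD4SP against DP and was lower in CD4SP than in CD8SP, with a difference of -1.41 ± 0.11 (adjusted p = 3.85e-05). Lgals3, another galectin, rose by 0.90 in CD4SP against DP and was 0.93 higher in CD4SP than in CD8SP. Spn, the heavily O-glycosylated CD43, rose by 1.25 in CD4SP and 1.54 in CD8SP, and Selplg, the selectin ligand core protein, rose by 0.91 in CD8SP, all against DP.

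**Figure D4:**
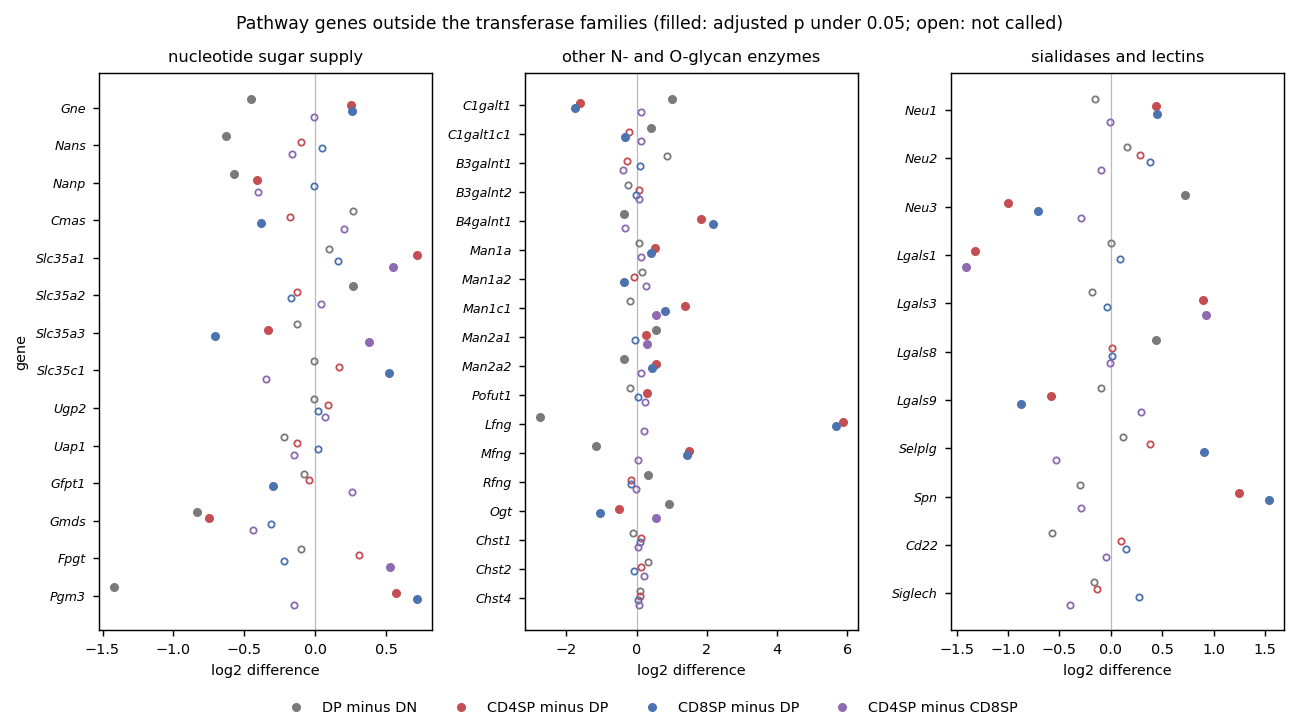
Log2 differences (x axis, its range set for each panel) in the 4 comparisons for the genes (y axis) of 3 pathway lists, with filled points for called differences and open points for those not called. Lfng stands at 5.88 in CD4SP minus DP and 5.68 in CD8SP minus DP, and C1galt1 at -1.60 and -1.75 in the same comparisons.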

How the data were processed

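The authors deposited 1 log value per probe set and array for 12 arrays and 45101 probe sets, read here as log2. No source used here states the log base. MAS5 is the only tool listed, per the submitters' processing notes, and neither its version nor its step is given. Every probe set averages to 0 over the DP arrays, within 1.27e-06, so the deposited values are relative to DP. Levels are lost with that, and no dim probe set could be left out. After removal of 64 control probe sets, 34945 had 1 gene symbol in the platform annotation, 932 had several (1 of them with B4galt2 beside another gene) and 9211 had none listed there. Probe sets were averaged per gene. All 82 genes matched RefSeq by gene ID.

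Groups and replicate numbers come from the sample titles. No further normalization was applied. A model of 4 subset means over the 12 arrays was fitted to all 18193 genes (R 4.3.3, limma 3.58.1: lmFit, then contrasts.fit and eBayes with no trend). P-values are two-sided, Benjamini-Hochberg adjusted over all genes within each comparison. The fit was tested on simulated data. The genes described array by array are those called with an absolute log2 difference of at least 1 in any of the 4 comparisons (20 genes, plus some smaller calls), and the families, pathway and marker lists were chosen with earlier results of these data known. The alternatives were the probe set summary, the scaling, array weights, a robust eBayes, the arrays in the fit and arrays left out.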

Additional observations from a re-analysis of the deposited data

Results flagged for a closer look

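For 16 genes the change from DP differed between the single-positive lineages, as tested by the CD4SP minus CD8SP difference in the limma fit over all genes (log2, n = 3 arrays a group, adjusted p under 0.05). Of these, 11 were higher in CD4SP. St8sia6 differed by 2.84 (adjusted p = 3.53e-06) and St3gal2 by 2.82 (adjusted p = 1.19e-06), St3gal2 with a rise in CD4SP and a fall in CD8SP. St8sia4 differed by 0.83, St8sia1 by 0.52 and St6galnac3 by 0.42. Of 21 alternatives, the call was lost in 12 for St6galnac3, 11 for B3gntl1, 9 for Mgat2 and 8 for B4galt5. It was lost in 5 for St8sia1, 4 for Fut10, 3 for Galnt10 and 1 each for Galnt4, Galnt7 and Galnt12. St8sia6, St3gal2, St8sia4, Galnt6, B3gnt9 and B4galt7 kept theirs in each alternative run. The O-glycan starters Galnt6, Galnt7, Galnt4 and Galnt10 differed by 0.86, 0.66, 0.56 and 0.51. B3gntl1 and Fut10 each differed by 0.37. Of the 5 that were lower in CD4SP, B3gnt9 differed by -1.05 (adjusted p = 0.00143), B4galt7 by -0.75, Galnt12 by -0.50, B4galt5 by -0.42 and Mgat2 by -0.40. The arrays of the groups did not overlap for any of the 16, beside 30.3% of all genes. The 16 were picked by their difference on these same arrays, so the lack of overlap adds no support.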

How the results depend on the processing

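Of 106 called results of the 82 genes, 52 were called in the same direction under each alternative run, and 31 of the 37 calls of at least 2-fold were. These tallies include losses under quantile normalization, which is ill suited to values centred on DP, as described below. Over 2211 alternative values, 2000 kept direction and call, 205 lost the call and 6 reversed in sign, and the cause was not tested. The 6 lost the call as well, and none was called in the other direction (adjusted p of 0.585 or more in the limma fit). Taking the probe set with the smallest spread gave 0.07 for St8sia6 in DP against DN, -0.04 for B4galt5 and 0.10 for Fut8 in CD4SP against DP, and 0.03 for Fut8 and -0.01 for Galntl6 in CD8SP against DP. Without probe sets ending in _x_at, _s_at or _a_at, B4galt5 was again at -0.04 in CD4SP against DP.

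Quantile normalization, which gives the narrow DP arrays the distribution of the others, cut the counts most. Of the 82 genes, 3 then rose in DP against DN, 10 rose and 8 fell in CD8SP against DP, and CD4SP was higher than CD8SP for 4 and lower for 2. Of all genes, 1194 rose and 1943 fell in DP against DN, 1360 rose and 1759 fell in CD4SP against DP, 1402 rose and 1444 fell in CD8SP against DP, and against CD8SP the CD4SP value was higher for 128 and lower for 167. With array medians subtracted 7 of the 82 and 2497 of all genes rose in DP against DN. In CD4SP against CD8SP, the 6 arrays alone gave 7 higher and 3 lower of the 82 and 828 higher and 520 lower of all genes. Array weights gave 1589 lower of all genes there, and leaving out DN replicate 1 and CD8SP replicate 1 together gave 1441.

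Leaving out 1 array at a time gave 7 to 14 of the 82 that rose in DP against DN, and CD4SP above CD8SP for 6 to 14 and below it for 3 to 6. Of all genes, 2541 to 3540 rose in DP against DN, and CD4SP was above CD8SP for 811 to 1515 and below it for 536 to 1364. The other counts stayed within 1.5 times under each of these alternatives. Fitting each probe set on its own, chosen after seeing the data, gave 26 of the 82 that rose in CD4SP and 26 in CD8SP against DP. A gene counts there if any of its probe sets was called, and 53 of the 82 have over 1. These counts therefore had more chances of a call than the 20 and 21 of the gene means. No share of all genes under this rule stands beside them, so they do not show more rises.

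The replicate numbers were not shown to pair arrays: residuals of arrays with the same number correlated at 0.11 to 0.16, -0.03 to 0.09 and 0.02 to 0.14 for replicates 1, 2 and 3, against -0.16 to 0.08 for different numbers. With the replicate block, 13 of the enzyme genes rose and 15 fell in DP against DN. In CD4SP 19 rose and 11 fell, and in CD8SP 20 rose and 15 fell, both against DP. In the contrast of CD4SP with CD8SP 14 were higher and 7 lower. Over all genes the block gave 3507 rises and 3593 falls in DP against DN, beside 3240 and 3420 without it. Against DP it gave 3162 rises and 3130 falls in CD4SP, beside 2992 and 2950 without it. For CD8SP against DP it gave 3438 rises and 3990 falls, beside 3307 and 3796. CD4SP was then higher than CD8SP for 1723 of all genes and lower for 1081, beside 1415 and 893 without the block. The block removed the calls of St8sia2 in DP against DN, B3gnt7 in CD4SP and Galntl6 in CD8SP against DP, and added those of Mgat1 in DP against DN (0.31, adjusted p = 0.0215) and, in CD4SP against CD8SP, of St6gal1 (1.16, adjusted p = 0.00703) and St6galnac4 (-0.45, adjusted p = 0.0292), among others. No filter on dim probe sets was run, since the values hold no signal level, so signal over background is unknown.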
